A study of Mus musculus with 8 samples.

Results

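The 5 genes described here encode the NF-kB (nuclear factor kappa B) subunits: Rela (p65), Relb, Rel (c-Rel), Nfkb1 (p105 and p50) and Nfkb2 (p100 and p52). The members were picked by name, as the NF-kB branch of the Rel family; the rule uses no measured value. All 5 were found among the 55414 genes of the count table, and all 5 passed the filter on low counts that left 16304 genes for testing. The cells were iBMDMs, an immortalized line of wild-type mouse bone-marrow-derived macrophages. Cells received 5 μM disulfiram (DSF), an inhibitor of aldehyde dehydrogenase used against alcohol dependence, or its solvent DMSO for 0.5 h. They then received 1 μg/ml lipopolysaccharide (LPS), the bacterial ligand of TLR4, or water for 4 h. The 4 groups were therefore control (DMSO, then water), DSF (then water), LPS (after DMSO) and DSF+LPS, with 2 RNA-seq libraries each; the treatment label of the controls reads none, and DMSO and water come from the shared treatment protocol. According to its title, the series asked how DSF acts on TLR4 signalling through MD-2, the co-receptor of TLR4. The labels do not say whether the 2 libraries of a group came from separate cultures, so p-values measure the spread between these libraries, which may be technical. All libraries came from 1 line and 1 time point, and only mRNA was measured.

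NF-kB subunits bind DNA as dimers. Rela, Relb and Rel carry transactivation domains, whereas p50 and p52, cut from the precursors p105 and p100, do not. In resting macrophages IkB proteins hold the dimers in the cytoplasm. TLR4 signalling activates the IKK kinase complex, IkB is degraded, and dimers of Rela or Rel with p50 enter the nucleus (the canonical pathway). In the non-canonical pathway the kinase NIK drives the processing of p100, which releases Relb with p52. Several family members and IkB genes are themselves known targets of NF-kB. None of these protein steps was measured in these libraries.

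The promoter sequences of Rel, Rela and Nfkb2 were searched for kB sites, the DNA motif of this family. These genes are shown because promoter windows were available for them, and not for their response to LPS or DSF. The RefSeq promoter table (GRCm38.p6) held windows for 3 of the 5 genes, each of 250 bases before and 50 bases after a start. The search used the 10-base kB consensus (GGG, a purine, any pair of bases, 2 pyrimidines, CC) on both strands. A match was present in 2779 of 32851 windows of the same length in the table, or 8.46%. Capitals mark the matched bases, the sequences run 5′ to 3′ on the strand of the gene, and only bases before the annotated exons are printed for Rel and Rela.
Rel, chr11:23770971-23771219, minus strand: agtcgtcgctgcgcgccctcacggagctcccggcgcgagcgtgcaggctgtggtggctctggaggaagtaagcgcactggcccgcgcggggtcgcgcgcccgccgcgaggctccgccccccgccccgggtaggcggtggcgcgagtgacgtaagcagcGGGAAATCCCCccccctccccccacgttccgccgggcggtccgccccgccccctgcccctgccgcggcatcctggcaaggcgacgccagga
Rela, chr19:5637291-5637482, plus strand: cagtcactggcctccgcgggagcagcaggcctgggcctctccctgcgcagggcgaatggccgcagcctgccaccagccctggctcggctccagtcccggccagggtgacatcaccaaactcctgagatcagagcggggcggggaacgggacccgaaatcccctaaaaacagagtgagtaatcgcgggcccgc
Nfkb2, site at position -39 from the first start: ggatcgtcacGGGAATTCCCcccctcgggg
Nfkb2, site at position 11 from the second start: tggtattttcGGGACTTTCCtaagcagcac
The Rel window held 2 overlapping matches, which begin at positions -92 and -91 from the start. The Rela window held 0 matches, which says only that these letters are not in that window. Nfkb2 has 3 annotated starts in the table. Its first window held overlapping matches at -39 and -38 and a further match, GGGGCTTTCC, at -11. Its second window held matches at -236 and 11, and the latter is the same site as the match at -225 of the third window. A match is a description of the letters and not evidence of binding.

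The libraries held between 17822041 and 21694922 counts, and each level below is in CPM (library counts scaled to a common total), adjusted by edgeR's trimmed mean of M values (TMM). The 5 genes had 499 to 11346 counts per library, so counting error was small beside the differences described. The 4 libraries with DSF had 23416 to 25081 genes detected, against 19779 to 20324 in the 4 without, and the 10 most abundant genes took 7.23% to 8.39% of counts against 4.85% to 5.14%. Whether these differences bear on any result here was not tested. The 8 macrophage markers summed to 2360 to 2409 CPM in control, 1994 to 2128 in DSF, 2507 to 2603 in LPS and 2185 to 2269 in DSF+LPS (marker sums here are scaled by library totals alone). On this scale the sum was lower in the 4 libraries with DSF than in the 4 without. With TMM scaling DSF+LPS was not below control. The markers also moved apart: with DSF alone 2 of the 8 rose and 4 fell, beside 31.0% and 27.1% of all genes. Csf1r went from 815 ± 15.2 CPM in control to 461 ± 25.0 in DSF, and Cd68 from 580 ± 16.7 to 760 ± 35.3 (TMM scaled, SD, n = 2). Each of 5 marker lists for other cell types summed to at most 4.18 CPM in any library, and S100a9, Cd3e and Nkg7 were at 0 throughout. Of these lists, 3 were also higher in the 4 libraries with DSF than in the 4 without. The lymphocyte list summed to more in the DSF libraries (1.34 to 2.12 CPM) and the DSF+LPS libraries (1.17 to 2.76 CPM) than in control (0.189 to 0.393 CPM) and LPS (0.468 to 0.521 CPM). Its B-cell gene Cd79a rose with DSF alone (3.10 on the log2 scale, adjusted p = 0.000683) and in DSF+LPS against LPS (2.03, adjusted p = 0.00407), from means of 0.195 and 0.485 CPM to 1.69 and 1.99. The neutrophil list was at 0.277 to 0.568 CPM in DSF and 0.356 to 0.523 in DSF+LPS, against at most 0.142 in control and 0.047 in LPS. The epithelial and endothelial list was at 2.81 to 3.61 CPM in DSF and 3.26 to 4.18 in DSF+LPS, against 1.68 to 2.31 in control and 2.42 to 2.81 in LPS, the highest LPS library lying just below the lowest DSF library. From it, Pecam1 was called higher with DSF alone (2.64, adjusted p = 0.00482), as were Flt3 (adjusted p = 0.000777) and Xcr1 (adjusted p = 0.0142) of the dendritic cell list, whose group means were all under 1 CPM. The part of these marker shifts in the results was not tested. In bulk RNA, fewer cells with a transcript and less of it per cell cannot be told apart.

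LPS raised the mRNA of all 5 subunits, and DSF split them into opposite directions. Rela and Relb were higher with DSF whether or not LPS was present, and were highest with both agents. Rel, Nfkb1 and Nfkb2 were highest with LPS alone and lower when DSF had been given before LPS. A gene was called changed at an adjusted p under 0.05 (edgeR's quasi-likelihood test, Benjamini-Hochberg adjustment over 16304 genes). In LPS against control, 5 of the 5 subunits rose, against a background of 15.2% of tested genes that rose and 13.8% that fell. In DSF against control, 2 rose and 2 fell, against 31.0% and 27.1% of all genes. In DSF+LPS against LPS, 2 rose and 3 fell, against 33.7% and 31.6%. In DSF+LPS against DSF, 5 rose, against 5.53% that rose and 6.53% that fell. In DSF+LPS against control, 4 rose and 0 fell, against 34.3% and 30.9%. These comparisons share libraries and are not independent of one another. In the comparisons of DSF with its matched group without DSF, most tested genes were called in one direction or the other, so the number of subunits called there is not in itself a result about them; the LPS comparisons have a lower background.

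**Figure D1:**
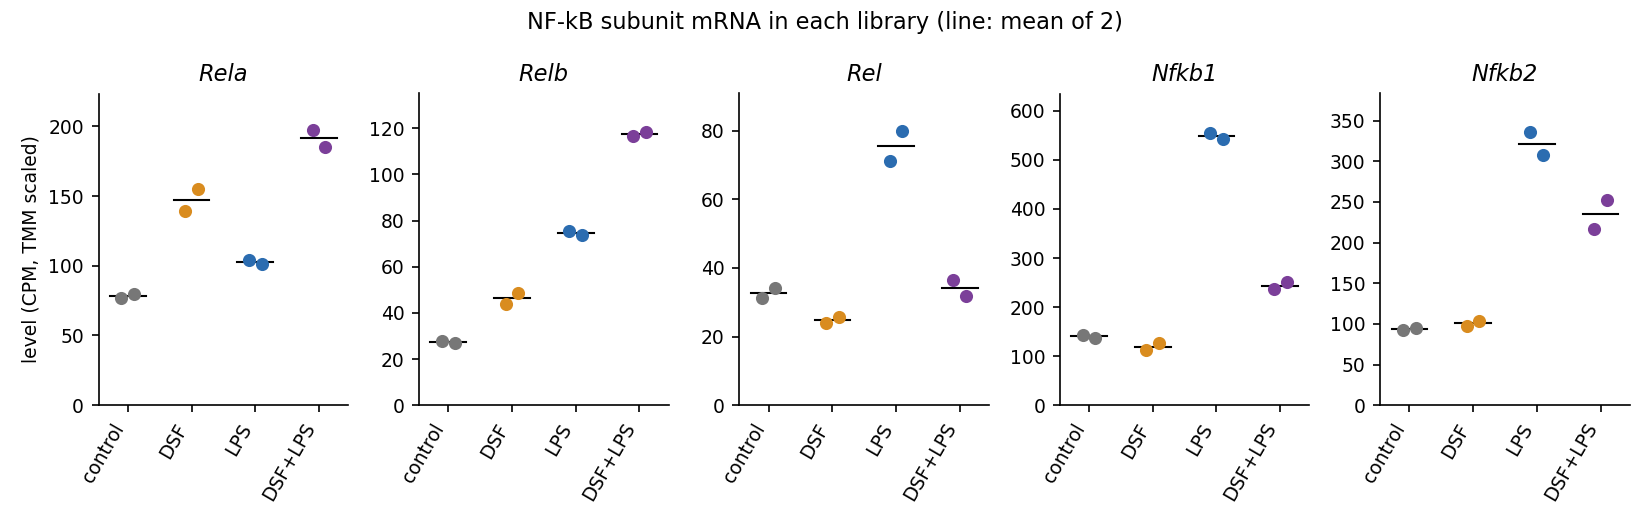
Level of each NF-kB subunit mRNA (CPM, TMM scaled; y axes start at 0 and differ between genes) in the control, DSF, LPS and DSF+LPS libraries; points are libraries and lines are means of 2. Rela and Relb are highest in DSF+LPS, while Rel, Nfkb1 and Nfkb2 are highest in LPS alone.

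Rela encodes p65, the transactivating subunit of the main canonical dimer. Its level was 76.7 and 79.7 CPM in the 2 control libraries, 139 and 155 in DSF, 104 and 102 in LPS and 197 and 185 in DSF+LPS. The 4 groups did not overlap, and their order was control, LPS, DSF and DSF+LPS. The rise with LPS was small: 78.2 ± 2.13 to 103 ± 2.04 CPM (SD, n = 2), a log2 fold change of 0.40 (SE 0.08, adjusted p = 0.00117). DSF alone gave a larger rise, of 0.91 on the log2 scale (SE 0.08, adjusted p = 1.6e-07), to 147 ± 11.4 CPM. DSF before LPS gave a rise of similar size over LPS alone, 0.89 (SE 0.08, adjusted p = 1.19e-07), to 191 ± 8.29 CPM. Against control, the DSF+LPS libraries were higher by 1.29 (adjusted p = 2.98e-09), or 2.45-fold.

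Rel encodes c-Rel, a transactivating subunit mainly of blood cells that is known to drive Il12b and other cytokine genes. Its level was 31.3 and 34.2 CPM in control, 23.8 and 25.8 in DSF, 71.1 and 79.8 in LPS and 36.5 and 31.8 in DSF+LPS. Both LPS libraries stood far above the rest, both DSF libraries lay below control, and the DSF+LPS libraries overlapped with control. LPS raised Rel from 32.8 ± 2.06 to 75.4 ± 6.12 CPM (SD, n = 2), a log2 fold change of 1.20 (SE 0.10, adjusted p = 2.96e-07). DSF before LPS left it at 34.2 ± 3.30 CPM, 0.453 of the level with LPS alone (log2 fold change -1.14, SE 0.10, adjusted p = 1.82e-07). DSF alone lowered Rel as well, to 24.8 ± 1.38 CPM (-0.40, SE 0.11, adjusted p = 0.00455). The difference between DSF+LPS and control was 0.06 with a 95% interval of -0.16 to 0.28 and did not pass the test (adjusted p = 0.632). The sign of this difference turned under some settings, to as low as -0.15 with library size alone.

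Relb encodes the transactivating subunit of the non-canonical dimer. Its level was 27.7 and 27.1 CPM in control, 43.8 and 48.8 in DSF, 75.4 and 73.6 in LPS and 117 and 118 in DSF+LPS. The groups did not overlap, and DSF+LPS was the highest, as for Rela, but LPS ranked above DSF. LPS raised Relb from 27.4 ± 0.436 to 74.5 ± 1.30 CPM (SD, n = 2), a log2 fold change of 1.44 (SE 0.08, adjusted p = 4.71e-09). DSF raised it by 0.75 without LPS (SE 0.09, adjusted p = 3.37e-06) and by 0.66 with LPS (SE 0.08, adjusted p = 4.52e-06). The DSF+LPS level of 118 ± 0.980 CPM was 4.29-fold that of control.

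Nfkb1 encodes p105, the precursor of p50. It had the most CPM of the 5 genes in the LPS libraries and the largest LPS response. Its level was 142 and 138 CPM in control, 112 and 127 in DSF, 555 and 542 in LPS and 236 and 251 in DSF+LPS. The groups did not overlap: LPS was far above the others, DSF+LPS lay between LPS and control, and DSF was the lowest. The rise with LPS, from 140 ± 3.18 to 549 ± 9.03 CPM (SD, n = 2), was 3.92-fold (log2 fold change 1.97, SE 0.07, adjusted p = 2.93e-11). DSF before LPS lowered the LPS level to 243 ± 10.3 CPM (-1.17, SE 0.07, adjusted p = 3.29e-09). That was still 1.74-fold the control level (0.80, adjusted p = 2.43e-07). DSF alone gave 119 ± 10.5 CPM, a small fall of 0.24 on the log2 scale (SE 0.07, adjusted p = 0.0129). The call, though less so the size, depended on single libraries: the change was -0.22 (adjusted p = 0.0728) without control replicate 1 and -0.17 (adjusted p = 0.0938) without DSF replicate 1.

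Nfkb2 encodes p100, which acts as an IkB-like inhibitor of Relb until it is processed to p52. Its level was 93.0 and 95.2 CPM in control, 97.8 and 103 in DSF, 336 and 307 in LPS and 217 and 252 in DSF+LPS. LPS was the highest group and DSF+LPS the next, with no overlap, while DSF and control lay side by side. LPS raised Nfkb2 from 94.1 ± 1.58 to 322 ± 20.5 CPM (SD, n = 2), or 3.42-fold (log2 fold change 1.77, SE 0.08, adjusted p = 3.32e-10). DSF before LPS lowered this to 235 ± 24.6 CPM, 0.729 of the level with LPS alone (-0.46, SE 0.08, adjusted p = 0.000159), beside -1.14 for Rel and -1.17 for Nfkb1; the difference between genes was not tested. DSF alone gave 101 ± 3.92 CPM, a difference of 0.10 with a 95% interval of -0.08 to 0.27 that did not pass the test (adjusted p = 0.341), and it was -0.01 with library size alone. Relative to control, DSF+LPS was higher by 1.32 (adjusted p = 4.44e-09). In the GENCODE M21 annotation, Psd, a gene on the opposite strand, overlaps Nfkb2. It had 207 to 786 counts per library and was itself highest with LPS (774 and 786 counts against 320 and 420 in control). No source used here says whether the counting used strand, so reads of this overlap cannot be assigned with certainty. A further opposite-strand gene there had 99 to 201 counts, and a same-strand gene overlapping Nfkb1 had 0 to 8.

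The LPS response in the presence of DSF was tested against the response in its absence, gene by gene, as the interaction of the 2 treatments. It was negative for 3 of the 5 genes, against 12.2% of all genes with a negative and 7.58% with a positive interaction at the same threshold. The LPS response of Nfkb1 was smaller with DSF by 0.94 on the log2 scale (interaction -0.94, SE 0.10, adjusted p = 1.24e-05), going from 1.97 to 1.03. The interaction of Rel was -0.74 (SE 0.15, adjusted p = 0.00236), its response going from 1.20 to 0.46. For Nfkb2 it was -0.55 (SE 0.11, adjusted p = 0.00331), from 1.77 to 1.22. Rela and Relb did not pass this test. The interaction of Rela was -0.02 with a 95% interval of -0.25 to 0.22 (adjusted p = 0.958), and that of Relb was -0.10 with an interval of -0.35 to 0.15 (adjusted p = 0.635). A change in the LPS response of these 2 genes within those intervals was not detectable here.

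On the additive scale the contrast between the genes was wider. LPS added 409 ± 9.57 CPM of Nfkb1 without DSF and 124 ± 14.8 CPM with it (errors are the group SDs combined, n = 2 per group). It added 42.7 ± 6.46 and 9.36 ± 3.58 CPM of Rel, and 228 ± 20.5 and 134 ± 24.9 CPM of Nfkb2. For Relb the order was the other way, with 47.1 ± 1.37 CPM added without DSF and 71.3 ± 3.62 with it. For Rela the amounts were 24.7 ± 2.95 and 44.2 ± 14.1 CPM. No test was made on this scale.

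The LPS response within DSF-treated cells passed the test for all 5 genes: Rela 0.38 (adjusted p = 0.00605), Relb 1.35 (adjusted p = 1.11e-07), Rel 0.46 (adjusted p = 0.0129), Nfkb1 1.03 (adjusted p = 5.37e-07) and Nfkb2 1.22 (adjusted p = 3.36e-07). The median of the 5 was 1.03, beside -0.003 over all genes. Relb and Nfkb2, the pair of the non-canonical pathway, had the largest values, and 1.75% and 2.36% of all tested genes changed by more in either direction. The calls of Rela and Rel in this comparison rested on DSF replicate 1. Without it, Rela was 0.31 (adjusted p = 0.101) and Rel 0.42 (adjusted p = 0.142), so that 3 of the 5 genes were called. Over all genes, 250 rose and 149 fell without that library, against 901 and 1065 with it. Rel was 0.47 (adjusted p = 0.0735) when only the DSF and DSF+LPS libraries were in the fit.

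**Figure D2:**
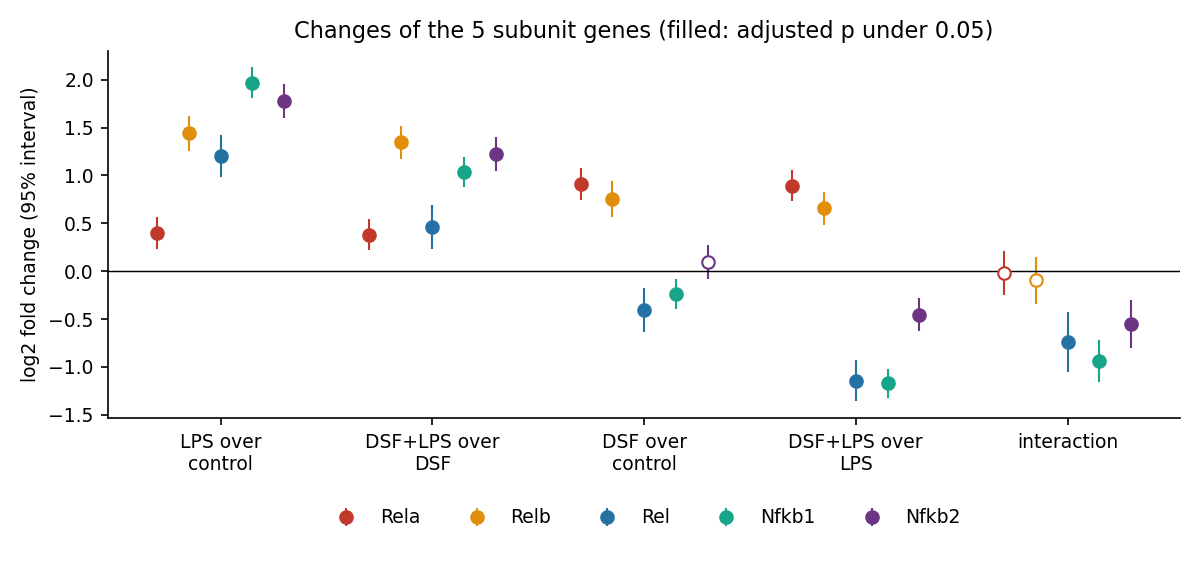
Log2 fold change of each subunit gene with its 95% interval in 4 comparisons and the interaction of DSF and LPS (edgeR fit over 8 libraries); filled points have an adjusted p under 0.05. The 5 genes lie above 0 with LPS, and with DSF Rela and Relb lie above 0 while Rel and Nfkb1 lie below.

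Ratios between 2 genes within a library do not depend on how libraries are scaled, and they showed the change in the balance of the subunits. The count ratio of Rela to Rel was 2.45 and 2.33 in control, 5.84 and 6.02 in DSF, 1.47 and 1.27 in LPS and 5.40 and 5.83 in DSF+LPS. It was thus lowest with LPS alone, and with DSF it was above 5 whether or not LPS was given. The ratio of Rela to Nfkb1 was 0.539 and 0.578 in control, 1.25 and 1.23 in DSF, 0.188 and 0.187 in LPS and 0.835 and 0.740 in DSF+LPS. The ratio of Relb to Rel was 0.886 and 0.792 in control, 1.84 and 1.89 in DSF, 1.06 and 0.923 in LPS and 3.20 and 3.72 in DSF+LPS. Here LPS alone moved the ratio little, Relb having risen 2.72-fold and Rel 2.30-fold, whereas the DSF+LPS libraries were the highest. Between the precursor genes, the ratio of Nfkb1 to Nfkb2 was 1.53 and 1.45 in control, 1.14 and 1.22 in DSF, 1.65 and 1.76 in LPS and 1.09 and 0.994 in DSF+LPS. In each of these 4 ratios the libraries with DSF lay on one side of the libraries without it. Of all 10 pairs of the 5 genes, 6 separated in this way (the other two are Relb over Nfkb1 and Relb over Nfkb2). The 4 that did not were Rela over Relb, Rela over Nfkb2, Rel over Nfkb1 and Rel over Nfkb2. Rela over Relb, for example, was 2.77 and 2.94 in control, 3.17 and 3.18 in DSF, 1.38 and 1.38 in LPS and 1.69 and 1.57 in DSF+LPS, lower with LPS in either setting. These ratios carry no test.

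**Figure D3:**
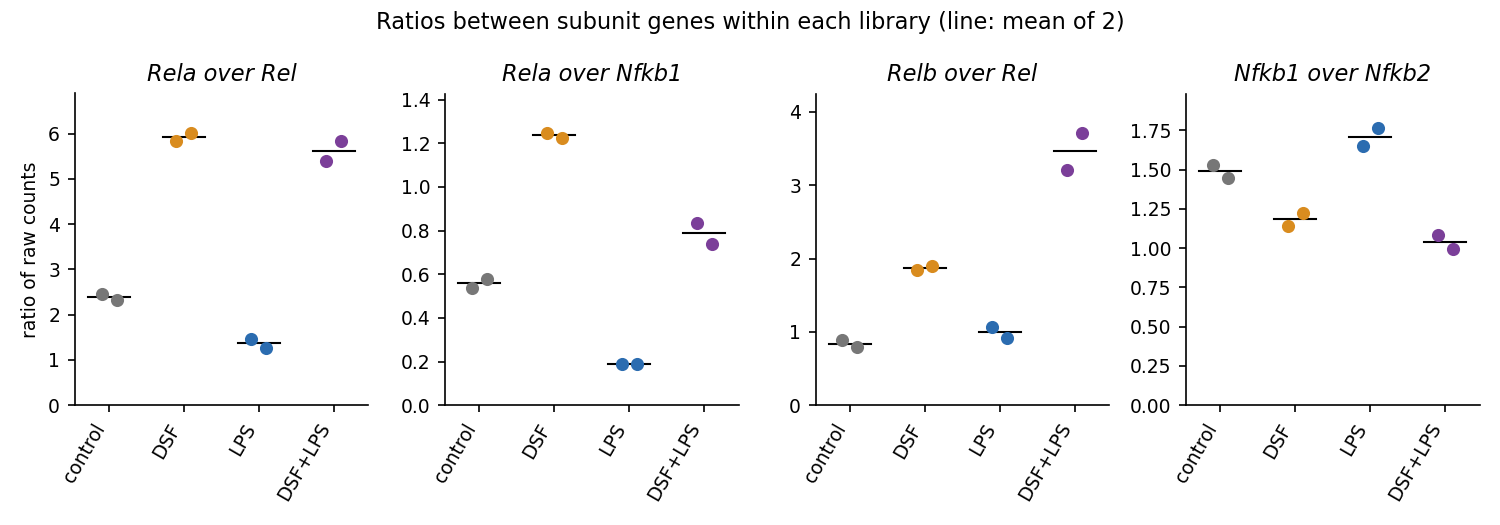
Ratio of raw counts of 2 subunit genes within each library (y axes start at 0 and differ between panels); points are libraries and lines are means of 2. Rela over Rel was 5.40 to 6.02 in the 4 libraries with DSF and 1.27 to 2.45 in the 4 without.

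To compare the genes with one another, levels were divided by gene length (CPM per kb of exon union, GENCODE M21). In control, Rela had the highest level per kb, 25.5 ± 0.692 (SD, n = 2), followed by Nfkb2 at 20.5 ± 0.344, Nfkb1 at 11.6 ± 0.264, Relb at 7.06 ± 0.112 and Rel at 4.39 ± 0.277. With LPS the order per kb changed to Nfkb2 (70.2 ± 4.47), Nfkb1 (45.5 ± 0.748), Rela (33.5 ± 0.664), Relb (19.2 ± 0.334) and Rel (10.1 ± 0.819). With DSF+LPS, Rela was again the highest at 62.3 ± 2.70 per kb, followed by Nfkb2 at 51.2 ± 5.36, Relb at 30.3 ± 0.252, Nfkb1 at 20.2 ± 0.855 and Rel at 4.57 ± 0.442. As a share of the summed levels per kb of the 5 genes, Rela made up 36.9% in control, 50.4% in DSF, 18.8% in LPS and 37.0% in DSF+LPS. The place of Nfkb1 depends on the length used, since its exon union spans 12061 bases and its longest transcript 4149. With the longest transcript, Nfkb1 was the highest in control (33.8 per kb) and in LPS (132 per kb), and reached 58.7 per kb in DSF+LPS. Rel was the lowest in each group with either length, and Rela the highest in DSF and in DSF+LPS.

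Genes of the pathway around the subunits were read from fixed lists, whose counts stand against the shares of all genes called given above for the same comparison. The IkB genes encode the inhibitors that hold the dimers and the nuclear IkB-like regulators. In LPS against control, 6 of 6 rose (median log2 fold change 1.80, beside 0.02 over all genes). In DSF+LPS against LPS, 1 rose and 5 fell (median -1.10, beside 0.04 over all genes). Nfkbia, the inhibitor that is resynthesized after NF-kB activation, was 52.2 ± 0.647 CPM in control, 32.9 ± 2.82 in DSF, 383 ± 28.2 in LPS and 139 ± 20.4 in DSF+LPS (SD, n = 2). Its order over the groups was that of Nfkb1. Nfkbiz, a nuclear IkB protein needed for Il6 induction, was 9.71 ± 0.905, 36.1 ± 2.81, 318 ± 5.19 and 191 ± 13.0 CPM in the same order of groups, so that DSF alone raised it (1.90, adjusted p = 1.22e-09). Bcl3, which binds p50 and p52 dimers, was 9.72 ± 1.17, 8.52 ± 0.880, 59.3 ± 0.327 and 21.2 ± 3.29 CPM. The 1 IkB gene that rose in DSF+LPS against LPS was Nfkbib (IkB beta), at 55.5 ± 4.53, 138 ± 16.2, 108 ± 0.243 and 263 ± 22.2 CPM. Nfkbib thus had the order of groups seen for Rela, and its interaction was -0.02 (adjusted p = 0.943). The interaction was negative for 3 of 6 IkB genes, namely Nfkbia (-0.80, adjusted p = 0.000975), Nfkbiz (-2.63, adjusted p = 3.66e-09) and Bcl3 (-1.30, adjusted p = 0.000218).

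Of 9 genes of the IKK complex and the kinases above it, 3 rose and 1 fell with LPS (15.2% and 13.8% of all genes). In DSF+LPS against LPS, 2 rose and 5 fell (33.7% and 31.6% of all genes). Some of these calls rested on single libraries or on the scaling: with LPS, 1 rose without LPS replicate 2, and 1 rose and 2 fell with library size alone. Ikbkg, the regulatory subunit NEMO, was 35.9 ± 1.19 CPM in control, 75.8 ± 4.70 in DSF, 35.6 ± 0.944 in LPS and 70.4 ± 8.38 in DSF+LPS (SD, n = 2). DSF alone raised it by 1.08 on the log2 scale (adjusted p = 2.86e-07), and its difference with LPS alone was -0.01 (adjusted p = 0.972). Map3k14 encodes NIK, the kinase of the non-canonical pathway, and was 27.4 ± 2.54, 31.8 ± 0.867, 20.4 ± 0.336 and 37.0 ± 7.48 CPM in the same order. It was higher in DSF+LPS than in LPS by 0.86 (adjusted p = 4.08e-05). Map3k8 (TPL2), the kinase that p105 binds and restrains, was 4.58 ± 0.252, 7.67 ± 1.94, 21.3 ± 0.318 and 11.2 ± 2.05 CPM. Both IKK-related kinases rose with LPS and fell in DSF+LPS against LPS. Ikbke (IKK epsilon) was 42.2 ± 3.20 CPM in control, 15.8 ± 1.36 in DSF, 371 ± 5.30 in LPS and 77.4 ± 10.1 in DSF+LPS.

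TRAF and cIAP genes and ubiquitin-editing genes followed. Of 6 TRAF and cIAP genes, some of which control NIK turnover, 4 rose with LPS (15.2% of all genes did). In DSF+LPS against LPS, 2 rose and 3 fell (33.7% and 31.6% of all genes). The LPS calls of Traf2 and Birc2 rested on single libraries, and with library size alone 2 rose and 1 fell. Traf1 was 3.00 ± 0.363 CPM in control, 21.4 ± 1.31 in DSF, 176 ± 11.8 in LPS and 106 ± 13.3 in DSF+LPS (SD, n = 2). Birc3 (cIAP2) was 44.0 ± 2.32, 15.6 ± 1.65, 142 ± 0.610 and 26.9 ± 4.19 CPM, so that DSF+LPS lay below control (-0.71, adjusted p = 4.62e-05). Of 8 ubiquitin-editing genes, not all of them inhibitors of the pathway, 6 rose with LPS and 8 fell in DSF+LPS against LPS (median -0.98). Tnfaip3 (A20), which removes activating ubiquitin chains upstream of IKK, was 14.0 ± 1.02, 16.3 ± 0.224, 121 ± 6.69 and 49.0 ± 3.82 CPM. Of 6 genes for the processing of p105 and p100, 2 rose and 1 fell with LPS, and 2 rose and 2 fell in DSF+LPS against LPS; the latter counts are near the background of 33.7% that rose and 31.6% that fell, and the median of this list was -0.06. With LPS the 1 call that fell was lost in each fit that left out 1 library, and in DSF+LPS against LPS 1 rose without either LPS library, without DSF+LPS replicate 1 or with library size alone. Of 12 coactivators and corepressors of Rel proteins, 1 rose and 1 fell with LPS, where 15.2% and 13.8% of all genes did. With DSF alone 3 rose and 5 fell, beside 31.0% and 27.1% of all genes. Without control replicate 2, 0 of these 12 were called with LPS.

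**Figure D4:**
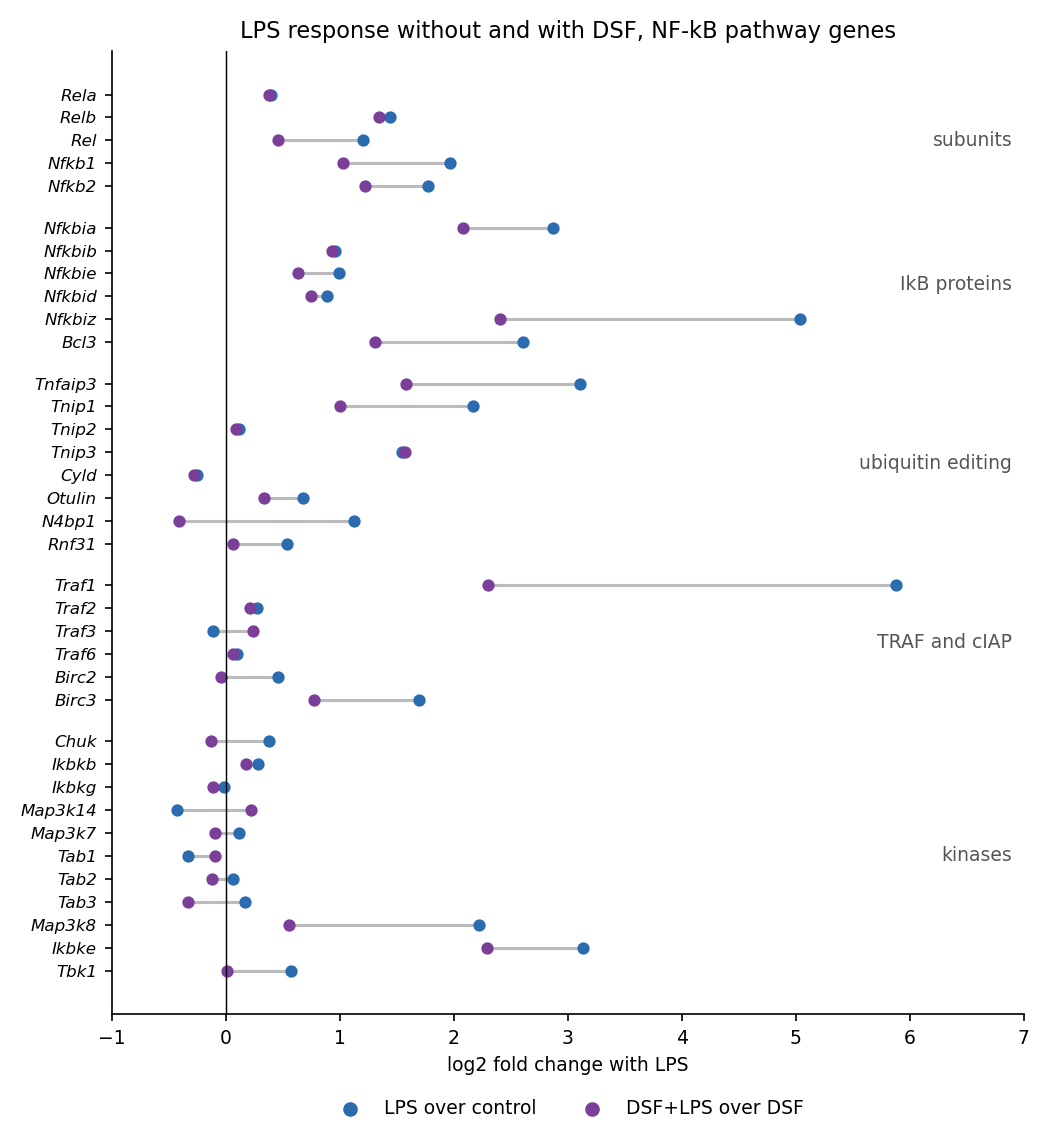
Log2 fold change with LPS, without DSF (LPS over control) and with DSF (DSF+LPS over DSF), for the subunits and the genes of 5 pathway lists (the kinases join 2 of them); grey lines join the 2 values of a gene. Rela, Relb and Nfkbib have nearly the same value without and with DSF, while Rel, Nfkb1, Nfkb2, Nfkbia, Nfkbiz and Bcl3 have a smaller one with DSF.

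The NFAT genes encode the other branch of Rel-homology proteins and served as relatives outside the NF-kB subunits. Of 5, 0 rose and 3 fell with LPS (without either LPS library, or without control replicate 2, 2 fell). With only the control and LPS libraries in the fit, 1 was called higher, Nfat5 (0.17, adjusted p = 0.0444). Nfatc4 was at 0 CPM in control and in LPS and at 1.38 ± 0.537 in DSF. It passed the filter only through libraries with DSF, so it could not be called with LPS. Nfatc1 was 73.6 ± 4.39 CPM in control, 44.7 ± 3.32 in DSF, 31.6 ± 1.28 in LPS and 38.4 ± 2.94 in DSF+LPS (SD, n = 2). Nfat5 was 101 ± 6.93, 334 ± 1.51, 114 ± 0.832 and 320 ± 5.84 CPM, higher in both groups with DSF. The list of known NF-kB target genes held 16 genes, of which 14 were tested. With LPS 14 rose (median 5.68), and in DSF+LPS against LPS 0 rose and 13 fell (median -2.83). The exception was Cxcl2, a neutrophil chemokine, at 1555 ± 31.9 CPM with LPS and 1664 ± 309 with DSF+LPS (0.10, adjusted p = 0.394). Without DSF+LPS replicate 1 this difference was 0.26. DSF alone raised Cxcl2 from 2.25 ± 0.398 to 43.7 ± 3.65 CPM (4.26, adjusted p = 4.07e-11). Its LPS response was therefore smaller with DSF, 5.25 against 9.42 without. The interaction was negative for 14 of the 14 targets, Cxcl2 included, beside 12.2% of all genes. Il12b passed the filter on low counts only through the LPS libraries (mean 8.24 CPM). Its means were 0 CPM in control, 0.126 in DSF and 0.134 in DSF+LPS. Its rise with LPS, its fall in DSF+LPS and its negative interaction were thus largely set by that filter. In DSF against control, 6 of the 14 targets rose and 3 fell, beside 31.0% and 27.1% of all genes. Among those that rose, Csf2 and Il12b were at a mean of 0.126 CPM with DSF and 0 in control. Single libraries mattered in both directions. Tnf went from 0.42 to 0.27 without DSF replicate 2. Il6, not called with all libraries, went from 0.37 to 6.22 without control replicate 2. Il6 lay near the floor (0.327 ± 0.462 CPM in control and 0.468 ± 0.214 in DSF), so the size of that value has little meaning. Il1b, the interleukin 1 beta gene, was 592 ± 22.8 CPM with LPS and 12.3 ± 2.27 with DSF+LPS. In DSF+LPS against LPS its log2 fold change was -5.60, while those of the subunit genes lay between -1.17 and 0.89.

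The 5 genes also differed in how they varied together over the 8 libraries, which is given as a description since the libraries share groups. Pearson's r of log2 CPM was 0.945 between Rel and Nfkb1 and 0.946 between Nfkb1 and Nfkb2. It was 0.767 between Rela and Relb, 0.821 between Relb and Nfkb2, -0.305 between Rela and Rel and -0.026 between Rela and Nfkb1. The nearest patterns were sought among 9558 genes with a symbol and a mean of at least 5 CPM. The subunits and genes with predicted, RIKEN or clone names were left out. The 3 genes with the pattern most like Rela were Mcm10, Mid1-ps1 and Crlf2 (r 0.995 for each over 8 libraries). Those of Relb were Eif6 (0.984), Hivep1 (0.983) and Tgm2 (0.981). Those of Rel were Sdc4 (0.993), Psmd1 (0.990) and Cd302 (0.990). Those of Nfkb1 were Slco4a1 (0.997), Il10ra (0.994) and Fas (0.993). For Nfkb2 they were Acod1 (0.994), Rapgef2 (0.993) and Slc11a2 (0.992). Of these, Acod1, which makes itaconate in activated macrophages, was 16.4 CPM in control, 16.4 in DSF, 2245 in LPS and 385 in DSF+LPS. A high r on the log scale does not require the same size of change, nor the same order where group means lie close: Acod1 was about equal in control and DSF, and Cd302 was 11.8 CPM in control and 11.2 in DSF+LPS.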

How the data were processed

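Raw gene counts of 8 libraries were used as the authors deposited them, as 1 table of 55414 Ensembl genes; per the submitters' processing notes the build was GRCm39 and DESeq2 was used. No source used here names the aligner, counter, annotation or strand setting. The first part of each Ensembl ID was matched to a symbol (52081 genes matched, 3333 did not). Library totals ran from 17822041 to 21694922 counts. All 8 libraries entered 1 edgeR 4.0.16 fit (R 4.3.3) with TMM scaling, the default filter on low counts (16304 genes kept) and the quasi-likelihood test, with Benjamini-Hochberg adjustment at 0.05. SEs were computed from the fold change and F. The script was tested on simulated data. Alternatives were DESeq2 1.42.0, its size factors, library size alone, no filter, only the 2 groups compared, each library left out, and the replicate number as a block; the pathway lists were run through them after the data were seen. Genes named were the 5 subunits, called genes with the largest changes in each list (up to 3 per comparison) and the 3 most alike in pattern per subunit. The members and lists were chosen with earlier results of these data known. Lengths came from GENCODE M21 (GRCm38) and promoters from RefSeq GRCm38.p6; no coordinates were converted between builds. No libraries were duplicates: replicate correlations of log2 CPM were 0.985 to 0.992. The 2 libraries of a group differed more in the groups with DSF. Their chi-square per degree of freedom was 3.61 in control, 6.82 in DSF, 3.96 in LPS and 12.7 in DSF+LPS. The fit nevertheless shared 1 estimate of the spread of a gene over the 4 groups.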

Additional observations from a re-analysis of the deposited data

Results flagged for a closer look

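The LPS response of 3 of the 5 subunits differed with and without DSF by the test of the difference itself. On the log2 scale the response with DSF minus that without was -0.94 for Nfkb1 (adjusted p = 1.24e-05), -0.74 for Rel (adjusted p = 0.00236) and -0.55 for Nfkb2 (adjusted p = 0.00331). These 3 genes had the same sign and stayed past the threshold under each alternative run.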

How the results depend on the processing

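For the 5 genes in 6 comparisons, 30 fold changes were recomputed under 315 alternatives in all; 297 kept their direction and their side of the threshold, 5 lost the call, and 13 turned sign, all of the latter in differences not called to begin with. With 1 library left out, the number of subunits that fell in DSF against control was 1 to 2 (2 with all), and the number that rose in DSF+LPS against DSF was 3 to 5 (5 with all); the lost calls are given in the results. The sign turned for Nfkb2 in DSF against control (-0.01, library size alone). It turned for Rel in DSF+LPS against control (-0.15 with library size alone, and -0.08 to 0.15 in the fits that left out 1 library, with -0.02 without control replicate 1 and -0.08 without DSF+LPS replicate 1). The interaction of Rela was 0.00 with DESeq2's size factors, 0.04 with library size alone, 0.01 without the filter, 0.00 with the DESeq2 test, and -0.07 to 0.10 in the fits that left out 1 library (0.00, 0.01, 0.07 and 0.10 in the 4 where it turned). That of Relb was 0.01 without DSF replicate 2. The cause was not tested. Library size alone moved the median of all genes from 0.02 to -0.13 in LPS against control and from 0.05 to -0.16 in DSF+LPS against control. The share of calls that were upward went from 52.5% to 30.0% and from 52.7% to 41.0%, and in DSF+LPS against DSF from 45.8% to 17.5%. With the replicate block, 2490 genes rose and 2244 fell in LPS against control (2485 and 2246 without it), and the block changed no call of the 5 genes. Same-numbered libraries did not deviate together (r from -0.119 to 0.0531 over 6 pairs of groups). No large effect shared by replicate number was thus seen. This cannot show whether same-numbered libraries were prepared together, which the labels do not say. In DSF+LPS against DSF, 324 genes rose and 200 fell with only those 2 groups in the fit. With 2 libraries a group, a fit without 1 of them takes the remaining library to vary like the other groups.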
